A study of Arabidopsis thaliana with 54 samples.

Results

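The first 4 h of light in equinox (EQ) were followed in whole seedlings of Arabidopsis thaliana Columbia 0 by RNA-seq. The 3 EQ libraries of Zeitgeber time 4 (ZT04, 4 h of light) were set against the 3 EQ libraries of ZT00 (end of the night, taken in the dark), and the change between them is called the dawn change. These are 6 of the 54 libraries of a time course that covered 6 times of day in short days (SD, 8 h light per day and 16 h dark), EQ (12 h light, 12 h dark) and long days (LD, 16 h light, 8 h dark), with 3 replicates per time. All seedlings germinated under the EQ cycle, with light of 130 μmol m-2 s-1 and a temperature of 22 °C, and stayed in it for 10 days, so EQ plants never changed their photoperiod, whereas SD and LD plants had 48 h in theirs before harvest. The labels give the seedlings an age of 12 days, and each replicate was a pool of seedlings from a single plate. No gene was used to choose these libraries, and the 92 spike-in identifiers were left out.

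Dawn is the time of day at which the plant clock, light signalling and the carbon economy all change state. Before light, the morning clock factors LHY, CCA1 and the REVEILLE (RVE) proteins, MYB-like DNA-binding proteins, are made, leaf starch is close to used up, and the SnRK1 kinase system keeps genes for sugar saving and amino acid breakdown active. Light then acts through phytochromes, cryptochromes and phototropins on photosynthesis genes, above all those of the light-harvesting chlorophyll proteins, and sugar from photosynthesis switches the starvation genes off.

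Values are CPM, a gene's counts relative to the total of its library after scaling by the trimmed mean of M-values (TMM), and a gene is called when edgeR's quasi-likelihood test gives a Benjamini-Hochberg adjusted p (FDR) under 0.05 over all genes tested in that comparison. The 3 ZT04 libraries held between 3098557 and 3460323 gene counts and the 3 ZT00 libraries between 2942862 and 3166090. The 10 genes with the most counts took 30.6% to 31.6% of each ZT04 library and 20.9% to 21.4% of each ZT00 library. The 6 leaf mesophyll markers, of which LHCB1.1 and LHCB1.3 also belong to the antenna list below, were present in every library and summed to between 1793 and 2371 CPM at ZT04 and between 1473 and 2152 CPM at ZT00. Of 4 root hair markers, COBL9, EXPA7 and EXPA18 were at 0 in all 6 libraries, and the fourth, PRP3, was counted in 1 ZT00 library only, although the samples are labelled as whole seedlings. Of the 2 guard cell markers, HT1 was at 0 in all 6 libraries and MYB60 summed to between 2.63 and 15.3 CPM at ZT04 and between 20.0 and 34.5 CPM at ZT00. The 3 seed storage markers were at 0 throughout. In such bulk samples, fewer cells of a type and less RNA per cell cannot be told apart. Genes at 0 in all 6 libraries were also common outside the marker lists, with percentages given in the next paragraph. A marker at 0 therefore cannot show by itself that a cell type was absent or rare.

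One property of the count table touches nearly every value below. By the TAIR10.1 annotation of RefSeq, 27.1% of genes overlap an annotated gene of the other strand, and that 27.1% held 90.6% to 93.5% of the counts of the 6 libraries. Of the nuclear protein-coding genes with no such overlap, 51.6% were at 0 in all 6 libraries, against 19.7% of those with one. Which strand the counted reads came from was not tested, and reads of overlapping genes cannot be told apart here, so overlapping partners are given beside many of the genes described below. At ZT04 272 tested genes, and at ZT00 276, had 0 in 1 or 2 libraries of a time and at least 20 CPM in another library of the same time.

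Of 7798 genes tested, 306 were higher and 415 were lower at ZT04 than at ZT00, 9.25% in all. The lowest FDR was 0.00436 and 1809 genes had an unadjusted p under 0.05. Among called genes that had counts at both times, the median log2 fold change was 1.29 for those that rose and -1.33 for those that fell. A further 37 of the genes that rose were at 0 in every ZT00 library and 39 of those that fell were at 0 in every ZT04 library. In all 721 called genes the values of the 2 times did not overlap, as was the case for 35.5% of the tested genes. Noncoding genes annotated as lncRNA gave 62 rises and 64 falls among 986 tested, and protein-coding genes 238 and 342 among 6618. With library totals in place of TMM, the median of all tested genes moved to -0.19 on the log2 scale and the split became 215 higher and 637 lower. The number of calls depended on each library, with 56, 51 and 232 higher and 58, 51 and 272 lower without ZT00 replicate A, B and C, and 73, 79 and 121 higher and 127, 135 and 218 lower without ZT04 replicate A, B and C.

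**Figure D1:**
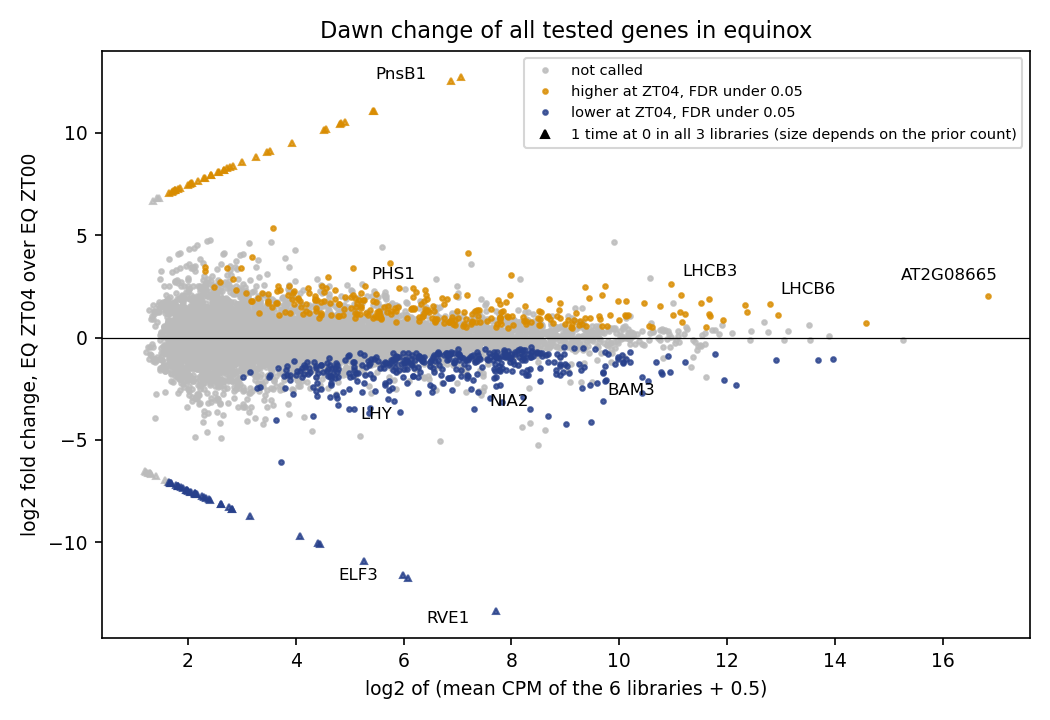
Each point is 1 of the 7798 tested genes, with the mean CPM of the 6 EQ libraries (log2 scale, 0.5 added) on the x axis and the log2 fold change of ZT04 over ZT00 on the y axis. Orange points are the 306 genes called higher and blue points the 415 called lower at ZT04, and triangles are genes at 0 in all 3 libraries of 1 time, whose plotted size depends on the prior count.

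Of the 16 gene lists described here, the light-harvesting antenna had the most genes that rose. Of 21 genes for the chlorophyll-binding proteins of photosystem II (LHCB) and photosystem I (LHCA), 19 were tested, 11 were higher at ZT04 and none was lower, where 3.92% of all tested genes were higher. The median log2 fold change of the 19 was 0.88, against 0.00 over all genes tested. Leaving out single libraries left between 4 (without ZT00 replicate B) and 8 (without ZT00 replicate C) of them called, with 5 without ZT00 replicate A and 5, 6 and 7 without ZT04 replicate A, B and C. Library totals in place of TMM left 8, with LHCB1.1, LHCB2.1 and LHCB5 no longer called. The call of LHCB3, LHCB1.5, LHCA1 and LHCA4 held without any 1 of the 6 libraries.

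LHCB3 (AT5G54270), a subunit of the trimeric antenna of photosystem II, had 3612, 3371 and 3293 CPM at ZT04, against 432, 492 and 763 CPM at ZT00 (log2 fold change 2.61, SE 0.24, FDR 0.0067). The lowest ZT04 library was more than 4 times the highest ZT00 library. LHCB3 shares 186 bases of annotated sequence with the myosin gene ATM2 on the other strand, and ATM2 rose alongside it (log2 fold change 2.45, FDR 0.00769). LHCB2.3 (AT3G27690), another trimer subunit, had 3017, 3668 and 4363 CPM at ZT04, against 578, 766 and 1256 CPM at ZT00 (log2 fold change 2.09, SE 0.32, FDR 0.0183). Here ZT00 replicate C stood above replicates A and B but still below every ZT04 library, and the overlapping AT3G27700 gave a log2 fold change of 2.09 (FDR 0.0195).

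LHCB6 (AT1G15820), the monomeric antenna protein CP24, had 10220.3, 11241 and 10882 CPM at ZT04, against 2869, 3125 and 4325 CPM at ZT00 (log2 fold change 1.65, SE 0.18, FDR 0.00894). It overlaps AT1G05207, which rose by a log2 fold change of 1.59 (FDR 0.00948). LHCB5 (AT4G10340), the monomeric protein CP26, had 52.4, 55.5 and 36.7 CPM at ZT04, against 23.8, 18.3 and 21.8 CPM at ZT00 (log2 fold change 1.18, SE 0.24, FDR 0.0385). The gap between the times was smaller in LHCB5 than in LHCB6, and LHCB5, which has no annotated gene on the other strand, lost its call whichever 1 of the 6 libraries was left out (FDR between 0.051 and 0.145).

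The LHCB1 and LHCB2 genes code for near-identical proteins, so reads may be split among the copies by the counting. LHCB1.5 (AT2G34420) had 389, 463 and 367 CPM at ZT04, against 94.1, 97.6 and 94.3 CPM at ZT00 (log2 fold change 2.09, SE 0.13, FDR 0.00436), with each ZT00 library within 4 CPM of the others. LHCB1.2 (AT1G29910) had 194, 252 and 158 CPM at ZT04, against 37.4, 51.9 and 59.7 CPM at ZT00 (log2 fold change 2.02, SE 0.26, FDR 0.0128). LHCB1.1 (AT1G29920) had 243, 268 and 203 CPM at ZT04, against 147, 120.5 and 140.3 CPM at ZT00 (log2 fold change 0.81, SE 0.16, FDR 0.0341), a smaller step that no single-library omission left called. LHCB2.2 (log2 fold change 1.46, FDR 0.0311) and LHCB2.1 (log2 fold change 0.88, FDR 0.0389) were also higher at ZT04. LHCB2.1, LHCB2.2 and LHCB2.3 each kept their call in 1 of the 6 omissions of a library, LHCB1.2 in 3 and LHCB6 in 5. LHCB1.3 averaged 539.6 ± 232 CPM at ZT04 and 383 ± 200.3 CPM at ZT00 (SD, n = 3 each), with overlapping libraries and an FDR of 0.628 in edgeR's test, and LHCB1.4 likewise did not pass (FDR 0.321).

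Of the photosystem I antenna, LHCA4 (AT3G47470) had 148, 153 and 121 CPM at ZT04, against 22.9, 28.4 and 32.8 CPM at ZT00 (log2 fold change 2.33, SE 0.21, FDR 0.00616), and LHCA1 (AT3G54890) had 170.0, 177 and 149.8 CPM at ZT04, against 51.2, 36.9 and 39.7 CPM at ZT00 (log2 fold change 1.96, SE 0.18, FDR 0.00679). Both were separated between the times by a wide gap. LHCA2 (log2 fold change 0.40, FDR 0.214) and LHCA3 (log2 fold change 0.75, FDR 0.226) did not pass, although their values did not overlap between the times. LHCA5 and LHCA6, minor members of the family, had 1 ZT04 library at 0 each and did not pass either (FDR 0.975 and 0.809). LHCB4.1 and LHCB4.2, copies of the monomeric CP29, gave log2 fold changes of 0.58 and 0.39 (FDR 0.247 and 0.411).

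**Figure D2:**
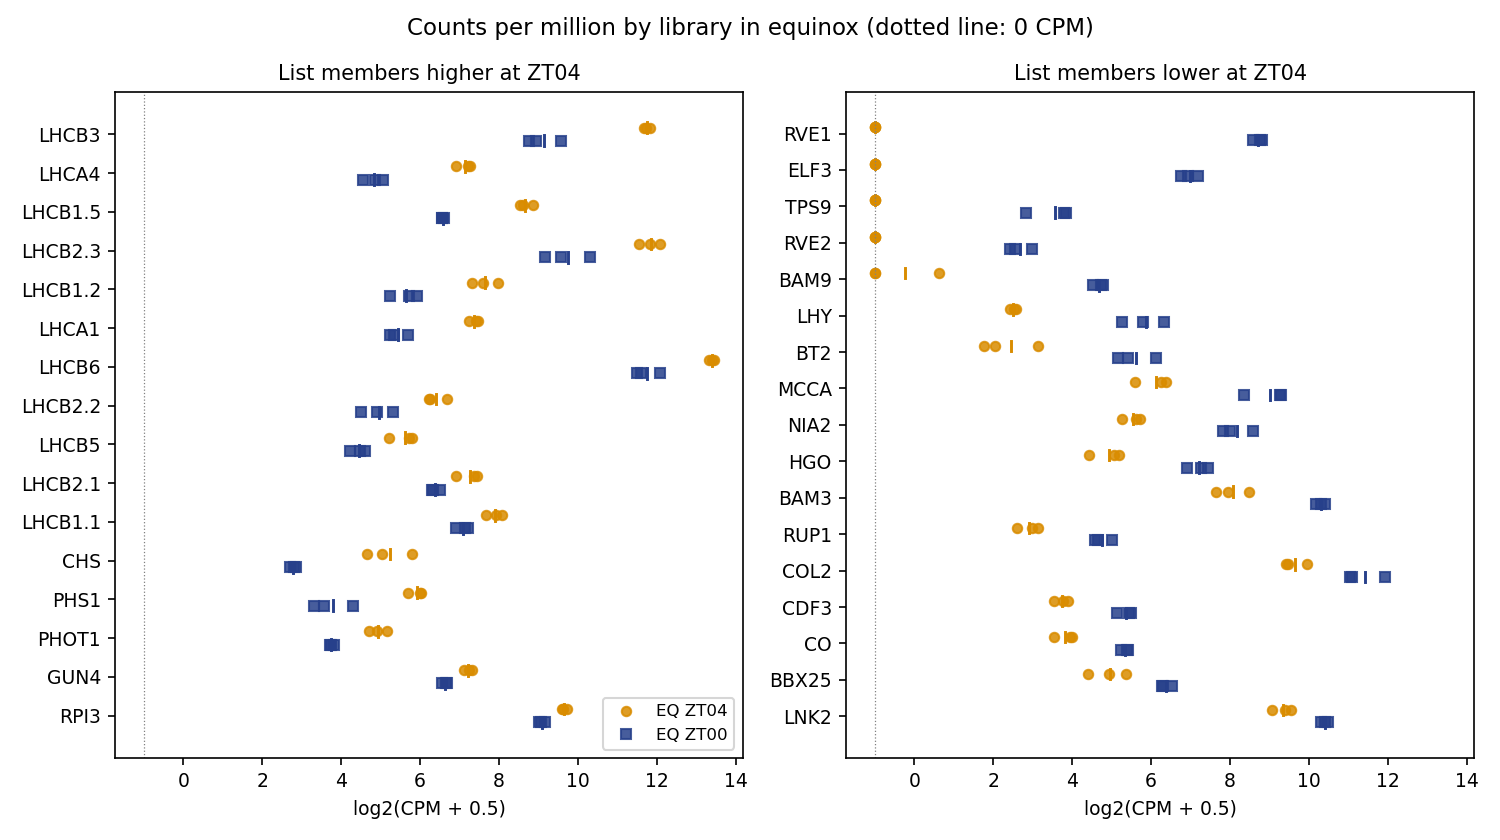
CPM of each EQ library (log2 scale, 0.5 added) for the list members called higher at ZT04 (left) and lower at ZT04 (right), with ZT04 libraries as orange circles, ZT00 libraries as blue squares and a bar at each mean. No gene shown has overlapping times, and RVE1, ELF3, TPS9 and RVE2 sit on the dotted line of 0 CPM in all 3 ZT04 libraries.

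Promoters of the antenna genes called higher were read for short motifs, since these genes moved together. Windows ran from 250 bases before to 50 bases after each gene start annotated by RefSeq (TAIR10.1) and were searched on both strands. The G-box CACGTG, a site of bZIP and bHLH factors, was in 3 of the 11 antenna windows and in 7.22% of the 7710 windows of tested genes that have one. The I-box GATAAG, a motif of light-regulated genes, was in 4 of 11, against 16.3% of all windows. The evening element AAAATATCT, the telobox AAACCCTA, the site II motif TGGGCC and the GCC-box GCCGCC were in none of the 11, against 2.65%, 5.65%, 15.8% and 3.23% of all windows. The ABRE core ACGTGTC, which can share letters with a G-box, was in 3 of 11 and in 4.5% of all windows, and the CCA1-binding site AAAAATCT was in 2 of 11 and in 7.30%. Over all called genes, the G-box was in 9.15% of the windows of genes that rose and in 7.23% of those that fell. The evening element was in 2.29% of the windows of genes that rose and in 2.41% of those that fell. A match describes the letters only. The 3 antenna windows with a G-box are printed with those of LHY and RVE1, morning clock genes that fell and also hold one, 5′ to 3′ in the direction of the gene, with every motif match in capitals. G-box and ABRE core run together in LHCB6, LHCA4, LHY and RVE1, and the first capitals in LHCA4 are a CCA1-binding site on the other strand.
LHCB6 chr1:5447831-5448130 (-): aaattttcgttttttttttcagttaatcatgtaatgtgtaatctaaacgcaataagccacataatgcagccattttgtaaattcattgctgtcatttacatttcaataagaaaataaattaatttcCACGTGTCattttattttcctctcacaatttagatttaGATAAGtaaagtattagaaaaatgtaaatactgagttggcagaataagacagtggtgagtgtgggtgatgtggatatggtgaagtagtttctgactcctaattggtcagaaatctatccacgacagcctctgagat
LHCB2.3 chr3:10255656-10255955 (+): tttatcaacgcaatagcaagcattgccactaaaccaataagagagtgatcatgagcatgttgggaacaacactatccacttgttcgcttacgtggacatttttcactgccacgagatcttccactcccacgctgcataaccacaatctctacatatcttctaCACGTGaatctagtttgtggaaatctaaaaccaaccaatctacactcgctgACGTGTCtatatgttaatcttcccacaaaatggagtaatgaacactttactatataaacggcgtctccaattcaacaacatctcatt
LHCA4 chr3:17494984-17495283 (-): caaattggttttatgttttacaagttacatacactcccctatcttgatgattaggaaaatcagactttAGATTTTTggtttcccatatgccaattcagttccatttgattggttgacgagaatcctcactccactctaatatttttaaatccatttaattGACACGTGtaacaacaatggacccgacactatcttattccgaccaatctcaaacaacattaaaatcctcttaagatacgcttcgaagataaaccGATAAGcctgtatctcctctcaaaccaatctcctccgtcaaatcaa
LHY chr1:37822-38121 (-): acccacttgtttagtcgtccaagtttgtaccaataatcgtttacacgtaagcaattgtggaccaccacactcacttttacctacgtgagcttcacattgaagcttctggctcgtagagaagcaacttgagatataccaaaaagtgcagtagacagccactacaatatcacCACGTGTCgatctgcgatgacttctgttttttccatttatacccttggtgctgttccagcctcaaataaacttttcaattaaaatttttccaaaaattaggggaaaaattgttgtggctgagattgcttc
RVE1 chr5:5692943-5693242 (-): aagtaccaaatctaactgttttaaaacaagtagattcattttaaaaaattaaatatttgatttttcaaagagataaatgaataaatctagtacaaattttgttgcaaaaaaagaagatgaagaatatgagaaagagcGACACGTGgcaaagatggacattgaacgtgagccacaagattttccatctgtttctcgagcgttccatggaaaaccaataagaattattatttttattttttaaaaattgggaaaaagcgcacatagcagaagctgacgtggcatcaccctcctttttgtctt

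Outside the antenna, the photosynthesis lists had 1 called gene each. All 19 genes of Rubisco and the Calvin cycle, which fixes carbon dioxide, were tested, and only RPI3 (AT3G04790), a ribose 5-phosphate isomerase, was called higher, against 3.92% of all tested genes, with a median log2 fold change of 0.19 over the list. RPI3 had 788, 841 and 773 CPM at ZT04, against 578, 537 and 513 CPM at ZT00 (log2 fold change 0.56, SE 0.10, FDR 0.0245), and the overlapping AT3G01505 gave 0.52. The small subunit gene RBCS1A averaged 476 ± 128 CPM at ZT04 and 451 ± 51 CPM at ZT00 (SD, n = 3 each), and its times overlapped. With library totals the list median became -0.01 and RPI3 lost its call, as it did whichever 1 of the 6 libraries was left out (FDR between 0.0628 and 0.117).

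Chlorophyll synthesis gave 1 rise among 15 tested of 24 genes, against 3.92% of all tested genes (median log2 fold change 0.05). That gene was GUN4 (AT3G59400), a regulator of magnesium chelatase, with 158, 137 and 150.1 CPM at ZT04, against 93.5, 99.8 and 101 CPM at ZT00 (log2 fold change 0.60, SE 0.13, FDR 0.0429). It overlaps GCN2, which did not pass (FDR 0.0903), and GUN4 lost its call when any 1 library was left out or when library totals were used. The chelatase subunit gene CHLH averaged 120.3 ± 9.0 CPM at ZT04 and 116 ± 30.2 CPM at ZT00 (SD, n = 3 each), with no call.

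Of the morning clock genes, LHY, RVE1 and RVE2 fell. Of 10 MYB-like genes of the LHY, CCA1 and RVE families, 6 were tested, 3 were lower at ZT04 and none was higher, where 5.32% of all tested genes were lower. The median log2 fold change of the 6 was -3.55, a value that stays the same with RVE1 and RVE2 at the lower bounds given below. LHY (AT1G01060), with CCA1 the core morning repressor of the clock, had 4.83, 5.25 and 5.43 CPM at ZT04, against 79.6, 55.2 and 38.2 CPM at ZT00 (log2 fold change -3.47, SE 0.34, FDR 0.00722). Every ZT00 library was at least 7 times the highest ZT04 library, and the call held without any 1 library. RVE1 (AT5G17300), which couples the clock to auxin synthesis, had 0 in all 3 libraries at ZT04, against 385, 431 and 447 CPM at ZT00. Against a floor of 3 counts over the 3 ZT04 libraries, RVE1 was at least 1273-fold lower (FDR 0.00436). RVE1 shares 225 bases with AT5G17305 on the other strand. AT5G17305 had 33.8, 19 and 104 CPM at ZT04, against 545, 567 and 671 CPM at ZT00 (log2 fold change -3.50, SE 0.66, FDR 0.0307). RVE2 was low and had 0 in all 3 libraries at ZT04, against 7.41, 4.88 and 5.37 CPM at ZT00, at least 17.8-fold lower (FDR 0.0403), a call that no single-library omission kept. CCA1 (AT2G46830) had 14.5, 12.5 and 12.5 CPM at ZT04, against 20.0, 23.2 and 16.1 CPM at ZT00, with no overlap between the times but an FDR of 0.215. RVE4 (AT5G02840) had 0, 3.61 and 0 CPM at ZT04, against 16.8, 18.6 and 11 CPM at ZT00 (FDR 0.169), and RVE5 averaged 18.5 ± 2.63 CPM at ZT04 and 11.9 ± 5.07 CPM at ZT00 (SD, n = 3 each).

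Among the day and evening clock genes that were tested, LNK2, ELF3 and CDF3 fell. Of 9 pseudo-response regulator (PRR) and LNK genes, LNK2 (AT3G54500), a coactivator that works with RVE proteins, was the 1 tested, and 8 did not pass the filter on low counts. LNK2 had 672, 533 and 749 CPM at ZT04, against 1266, 1349.6 and 1445 CPM at ZT00 (log2 fold change -1.06, SE 0.15, FDR 0.0162), and the lncRNA gene AT3G08405 that overlaps it gave -1.08 (FDR 0.0202). LNK2 lost its call without ZT00 replicate A or B or ZT04 replicate A. LNK1 had 0, 48.6 and 65.5 CPM at ZT04, against 0 in all 3 libraries at ZT00 and was not tested. Without the filter on low counts, 7 of the 9 were fitted, with a median log2 fold change of 5.96, 0 higher and 1 lower. A fit of all 54 libraries held all 9, with a median of 4.49, 1 higher and 0 lower. The fall of LNK2 therefore does not stand for its list. Of 13 evening and CDF genes, 8 were tested, 2 were lower, against 5.32% of all tested genes, and none was higher (median log2 fold change -1.67). ELF3 (AT2G25930), the scaffold of the evening complex that represses growth genes at night, had 0 in all 3 libraries at ZT04, against 146, 123 and 108 CPM at ZT00, at least 381-fold lower (FDR 0.00436). Its overlapping partner AT2G08135 did not pass (log2 fold change -0.94, FDR 0.498). CDF3 (AT3G47500), a DOF-type repressor of flowering genes, had 11, 14.4 and 13.1 CPM at ZT04, against 43.2, 44.8 and 34.6 CPM at ZT00 (log2 fold change -1.67, SE 0.22, FDR 0.0136), a call kept in 2 of the 6 omissions of a library. LUX, another evening complex protein, averaged 111 ± 32.3 CPM at ZT04 and 96.8 ± 40.0 CPM at ZT00 (SD, n = 3 each) and did not pass.

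The B-box genes COL2, BBX25 and CO fell. Of 13 B-box zinc finger genes, 7 were tested, 3 were lower, against 5.32% of all tested genes, and none was higher (median log2 fold change -0.95). None of the list was called without ZT00 replicate A or B or without ZT04 replicate A or B, and 2 were called without replicate C of either time. COL2 (AT3G02380) had 713, 682 and 993 CPM at ZT04, against 2189, 3871 and 2128 CPM at ZT00 (log2 fold change -1.78, SE 0.30, FDR 0.0217), with ZT00 replicate B well above replicates A and C. COL2 shares 771 bases with AT3G02370 on the other strand, which gave -2.18 (FDR 0.244). BBX25 (AT2G31380), which acts with the light regulator HY5, had between 20.7 (replicate B) and 40.9 CPM (replicate C) at ZT04, against 77.3, 78.7 and 92.2 CPM at ZT00 (log2 fold change -1.44, SE 0.28, FDR 0.0344). It shares 48 bases with AT2G31390 on the other strand. AT2G31390 had means of 716 CPM at ZT04 and 341 CPM at ZT00 and did not pass (log2 fold change 1.07, FDR 0.0644). CO (AT5G15840), the photoperiod switch of flowering, had 11, 14.8 and 15.3 CPM at ZT04, against 37.1, 41.8 and 42.1 CPM at ZT00 (log2 fold change -1.55, SE 0.22, FDR 0.0162). CO lies within 1967 shared bases of the lncRNA gene AT5G15843, which fell by 4.03 on the log2 scale (FDR 0.0131), and which counts belong to which gene cannot be told apart. BBX24 averaged 1046 ± 39.1 CPM at ZT04 and 764 ± 89.5 CPM at ZT00 (SD, n = 3 each), with times that did not overlap and an FDR of 0.0688.

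Of 14 photoreceptor and light-signalling genes, 9 were tested, 1 rose (against 3.92% of all tested genes) and 1 fell (against 5.32%), with a median log2 fold change of -0.03. PHOT1 (AT3G45780), the blue-light receptor phototropin, rose, with 25.5, 35.1 and 29.7 CPM at ZT04, against 13.5, 12.8 and 12.5 CPM at ZT00 (log2 fold change 1.21, SE 0.22, FDR 0.0258), a call lost whichever 1 of the 6 libraries was left out (FDR between 0.0669 and 0.114). RUP1 (AT5G52250), which switches the UV-B receptor off, fell, with 5.52, 8.2 and 7.35 CPM at ZT04, against 24.8, 31.7 and 23.6 CPM at ZT00 (log2 fold change -1.92, SE 0.27, FDR 0.0155), a call kept without ZT00 replicate C only. HY5 had 0, 1.64 and 0 CPM at ZT04, against 15.1, 8.85 and 7.46 CPM at ZT00, with no overlap but an FDR of 0.118. None of 13 PIF and growth genes was called, with 3 tested (median log2 fold change -0.42), among them PIF1 (log2 fold change -0.42, FDR 0.789), a basic helix-loop-helix factor of seedlings in the dark, and 6 of the 13 were at 0 in all 6 libraries.

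Of the genes of darkness and sugar starvation, BT2 and TPS9 fell. Of 20 list members, 14 were tested, 2 were lower, against 5.32% of all tested genes, and none was higher. None was called without ZT00 replicate A or B or ZT04 replicate B, 1 was called without ZT00 replicate C or ZT04 replicate A, and 2 without ZT04 replicate C. The median log2 fold change of the 14 was -2.33, in the fit as with TPS9 at its lower bound, and in 11 of the 14 the times did not overlap, where 35.5% of all tested genes did not. BT2 (AT3G48360), a BTB-domain scaffold protein, had 8.28, 3.61 and 2.87 CPM at ZT04, against 69.3, 35.1 and 42.4 CPM at ZT00 (log2 fold change -3.31, SE 0.52, FDR 0.0193). TPS9 (AT1G23870), a trehalose phosphate synthase-like protein, had 0 in all 3 libraries at ZT04, against 13.9, 13.4 and 6.57 CPM at ZT00, at least 34.1-fold lower (FDR 0.0227). DIN6 (AT3G47340), an asparagine synthetase used as a starvation marker, had 5.17, 0 and 5.11 CPM at ZT04, against 28.7, 20.4 and 9.25 CPM at ZT00 and did not pass (FDR 0.241), with ZT04 replicate B at 0. PP2-A13 (AT3G61060) had 0, 0 and 103 CPM at ZT04, against 655, 762 and 423 CPM at ZT00 (FDR 0.321), so that ZT04 replicate C alone held counts. PEX11E, which shares 489 bases with PP2-A13 on the other strand, was called lower (log2 fold change -2.72, FDR 0.0169). SEN1 had 3.1, 0 and 3.19 CPM at ZT04, against 25.8, 29.6 and 7.16 CPM at ZT00 (FDR 0.131).

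Amino acid breakdown had 2 of 6 tested genes lower among 10 members, against 5.32% of all tested genes (median log2 fold change -1.39). None was called without ZT00 replicate A or B, and 1 without ZT04 replicate A. MCCA (AT1G03090), a subunit of the leucine-degrading methylcrotonyl-CoA carboxylase, had 75.9, 47.9 and 82.7 CPM at ZT04, against 623, 613 and 327 CPM at ZT00 (log2 fold change -2.92, SE 0.35, FDR 0.0105). ZT00 replicate C was about midway between the other ZT00 libraries and ZT04, and the overlapping AT1G03100 and AT1G04157 were both called lower. HGO (AT5G54080), an enzyme of tyrosine breakdown, had 33.1, 21 and 36.1 CPM at ZT04, against 173, 153 and 119 CPM at ZT00 (log2 fold change -2.30, SE 0.28, FDR 0.0106). It shares 790 bases with AT5G54090 on the other strand, which gave -0.56 (FDR 0.0642). IVD, of the same leucine pathway as MCCA, had 3.79, 2.95 and 4.15 CPM at ZT04, against 13.9, 15.6 and 7.16 CPM at ZT00, with an FDR of 0.0642. Of 7 nitrogen assimilation genes, 6 were tested (median log2 fold change -0.28) and 1 was lower, against 5.32% of all tested genes. That gene was NIA2 (AT1G37130), the main nitrate reductase. NIA2 had 37.9, 48.9 and 51.7 CPM at ZT04, against 383, 254 and 226 CPM at ZT00 (log2 fold change -2.64, SE 0.26, FDR 0.00752), has no overlapping gene and kept its call without any 1 library. The minor copy NIA1 had 9.31, 15.1 and 10.5 CPM at ZT04, against 26.7, 15.9 and 26.6 CPM at ZT00 (FDR 0.137).

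Of the starch breakdown genes, BAM3 and BAM9 fell and PHS1 rose. Of 16 members, 6 were tested, 1 was higher (against 3.92% of all tested genes) and 2 were lower (against 5.32%), with a median log2 fold change of -0.57. The call of PHS1 was kept without ZT00 replicate C only, and that of BAM9 without ZT04 replicate A only. BAM3 (AT4G17090), the chloroplast β-amylase that releases maltose at night, had 247, 201 and 360.3 CPM at ZT04, against 1272, 1156 and 1359.7 CPM at ZT00 (log2 fold change -2.23, SE 0.24, FDR 0.00858), and the call held without any 1 library. The lncRNA gene AT4G06665, which shares 518 bases with BAM3, had 1039, 1410.4 and 2128 CPM at ZT04, against 8186, 7679 and 7093 CPM at ZT00 (log2 fold change -2.33, SE 0.28, FDR 0.0105). BAM9 (AT5G18670), a β-amylase relative without catalytic activity, had 1.03, 0 and 0 CPM at ZT04, against 22.6, 25.9 and 27.2 CPM at ZT00 (log2 fold change -6.08, SE 0.95, FDR 0.0193). PHS1 (AT3G29320), the plastid glucan phosphorylase, rose, with 51, 64.6 and 63.9 CPM at ZT04, against 11.3, 9.46 and 19.1 CPM at ZT00 (log2 fold change 2.17, SE 0.33, FDR 0.0177), and the overlapping AT3G29330 rose with it (log2 fold change 1.69, FDR 0.0153). Of 16 starch synthesis genes, 7 were tested and none was called (median log2 fold change 0.01), with 6 at 0 in all 6 libraries. APL1, a subunit of the enzyme that makes ADP-glucose, averaged 3317 ± 134 CPM at ZT04 and 2832 ± 96 CPM at ZT00 (SD, n = 3 each, FDR 0.182).

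Phenylpropanoid and flavonoid genes gave 1 rise among 8 tested of 21, against 3.92% of all tested genes, with a median log2 fold change of 1.12. CHS (AT5G13930), the entry enzyme of flavonoid synthesis, had 32.1, 55.1 and 24.6 CPM at ZT04, against 6.45, 6.71 and 5.97 CPM at ZT00 (log2 fold change 2.54, SE 0.36, FDR 0.0162), a call kept in 2 of the 6 omissions of a library (highest FDR 0.0815). F3H (AT3G51240), a later enzyme, had 22.4, 27.2 and 22 CPM at ZT04, against 8.06, 7.63 and 2.39 CPM at ZT00, and its FDR was 0.0584 in edgeR's test. Other tools or a stricter filter placed F3H under the threshold (FDR 0.00418 with DESeq2, 0.0344 with limma-voom and 0.043 both with a minimum count of 30 and without ZT00 replicate C). Its FDR stayed above the threshold under every other alternative run, and F3H shares 1588 bases with AT3G51238 on the other strand, which had means of 2549 CPM at ZT04 and 888 CPM at ZT00 and was called higher (log2 fold change 1.52, FDR 0.0217). PAL1 (AT2G37040), the first enzyme of the pathway, had 9.66, 21 and 14.7 CPM at ZT04, against 7.73, 2.14 and 1.19 CPM at ZT00 (FDR 0.17). None of the 3 tested of 12 cold-linked genes passed (median log2 fold change 0.83). Of the genes that the study names and that lie outside these lists, only the glucosinolate enzyme gene FMO GS-OX5 was called. It was higher at ZT04, with 129.7, 132 and 139 CPM at ZT04, against 81.5, 90.3 and 68.6 CPM at ZT00 (log2 fold change 0.74, SE 0.15, FDR 0.0395), a call lost with library totals and without any 1 library. MYC2, a jasmonate-response factor that the study names, had libraries that ranged from 56.8 to 961 CPM at ZT04 and from 75.5 to 1243 CPM at ZT00, and it did not pass. It shares 3241 bases with AT1G32630, which had means of 752 CPM at ZT04 and 736 CPM at ZT00.

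The 9 largest fitted rises among called genes with a mean of at least 20 CPM were of genes counted at ZT04 only. AT4G18220 had 210.4, 339 and 254 CPM at ZT04, against 0 in all 3 libraries at ZT00, at least 868-fold higher (FDR 0.00436). PnsB1 (AT1G15980), a subunit of the chloroplast NADH dehydrogenase-like complex, had 203, 224 and 276 CPM at ZT04, against 0 in all 3 libraries at ZT00, at least 760.4-fold higher (FDR 0.00436). AT1G09390, AT5G03420, EPC1, NDPK2, LYM1, AT1G74410 and PCNA2 were of the same kind, with lower bounds between 147 and 282. Each of these 9 genes overlaps a gene on the other strand. Of the 76 called genes with 1 time at 0, 36 overlap an opposite-strand gene, as do 497 of all 721 called and 4401 of the 7798 tested genes. The overlapping partner was tested for 30 of the 76, and 3 of these partners were called in the same direction and 0 in the opposite one. Of the 76, 54 were tested in SD, where 6 were called in the same direction, and 52 in LD, where 2 were. Their median fitted log2 dawn change, signed as in EQ, was 1.36 in SD and 1.63 in LD. Whether such zeros are absent transcripts or reads given to another gene was not tested. Among those with counts at both times, AT3G03145 had the largest rise, with 337, 308 and 186 CPM at ZT04, against 14.5, 15.6 and 16.4 CPM at ZT00 (log2 fold change 4.16, SE 0.28, FDR 0.00436). AT5G06505 (log2 fold change 3.65, FDR 0.0172) and AT5G45520 (log2 fold change 3.38, FDR 0.0115) came next.

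By the same ranking, the 6 largest fitted falls were those of RVE1, DFB, ELF3, AT1G10390, SAG21 and ACR9, all at 0 in the ZT04 libraries. DFB (AT5G05980), a folate polyglutamylation enzyme, had 0 in all 3 libraries at ZT04, against 121, 156 and 128 CPM at ZT00, at least 408-fold lower (FDR 0.00436), and SAG21 (AT4G02380), a late-embryogenesis-type protein of senescence and stress, had 0 in all 3 libraries at ZT04, against 67.7, 31.4 and 28.9 CPM at ZT00, at least 129-fold lower (FDR 0.0139). SAG21 and ACR9 have no overlapping gene. Among those with counts at both times, AT1G49205 had the largest fall, with 51.7, 31.2 and 74.4 CPM at ZT04, against 1036, 950.2 and 966 CPM at ZT00 (log2 fold change -4.23, SE 0.35, FDR 0.00553). AT5G09565 had 97.6, 47.3 and 88.2 CPM at ZT04, against 1829, 1429 and 783 CPM at ZT00 (log2 fold change -4.12, SE 0.45, FDR 0.00911), and AT5G66053, AT1G04157, AT2G15960 and AT5G17305 had log2 fold changes between -3.83 and -3.50. In AT5G09565, AT5G66053, AT1G04157 and AT2G15960, as in MCCA, ZT00 replicate C was the lowest of the ZT00 libraries.

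The called genes with the most counts overlap genes on the other strand. AT2G08665, an lncRNA gene opposite LHCB1.5 over 1045 bases, had 188897, 180026 and 192132 CPM at ZT04, against 40304, 43514 and 53326 CPM at ZT00 (log2 fold change 2.03, SE 0.15, FDR 0.00436). LHCB1.5 itself gave 2.09, and both genes of the pair rose. AT1G55673, opposite the photosystem I subunit gene PSAG, had 29634, 30850.0 and 30431 CPM at ZT04, against 17678, 17868 and 19649 CPM at ZT00 (log2 fold change 0.72, SE 0.10, FDR 0.0135), beside a log2 fold change of 0.85 for PSAG (FDR 0.0115). AT4G37409 (opposite CYP81F4) and AT4G38775 (opposite PRP4) gave log2 fold changes of 1.095 and 1.27. Of the genes that fell, AT1G72600 had the most counts, with 12191, 9330.5 and 9784 CPM at ZT04, against 23866, 20051 and 20008 CPM at ZT00 (log2 fold change -1.03, SE 0.15, FDR 0.0162). AT4G16983, AT3G05905 and AT5G63195 fell by 1.08, 1.08 and 2.09 on the log2 scale.

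The dawn change of overlapping genes was then compared over the whole table. For 1901 opposite-strand pairs with both genes tested, the log2 fold changes of the 2 genes had a Pearson correlation of 0.275 and a Spearman correlation of 0.440 across pairs, and 68.5% of pairs had the same sign. Pairs share libraries and genomic sequence and are not independent. Among 260 opposite-strand neighbours that lie within 1000 bases without overlapping, the Spearman correlation was 0.046 and 49.6% had the same sign. In 90 overlapping pairs both genes were called, and 86 of these moved in the same direction, as LHCB3 did with ATM2 and BAM3 with AT4G06665. Of the 721 called genes, 497 overlap an opposite-strand gene, as do 4401 of the 7798 tested.

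**Figure D3:**
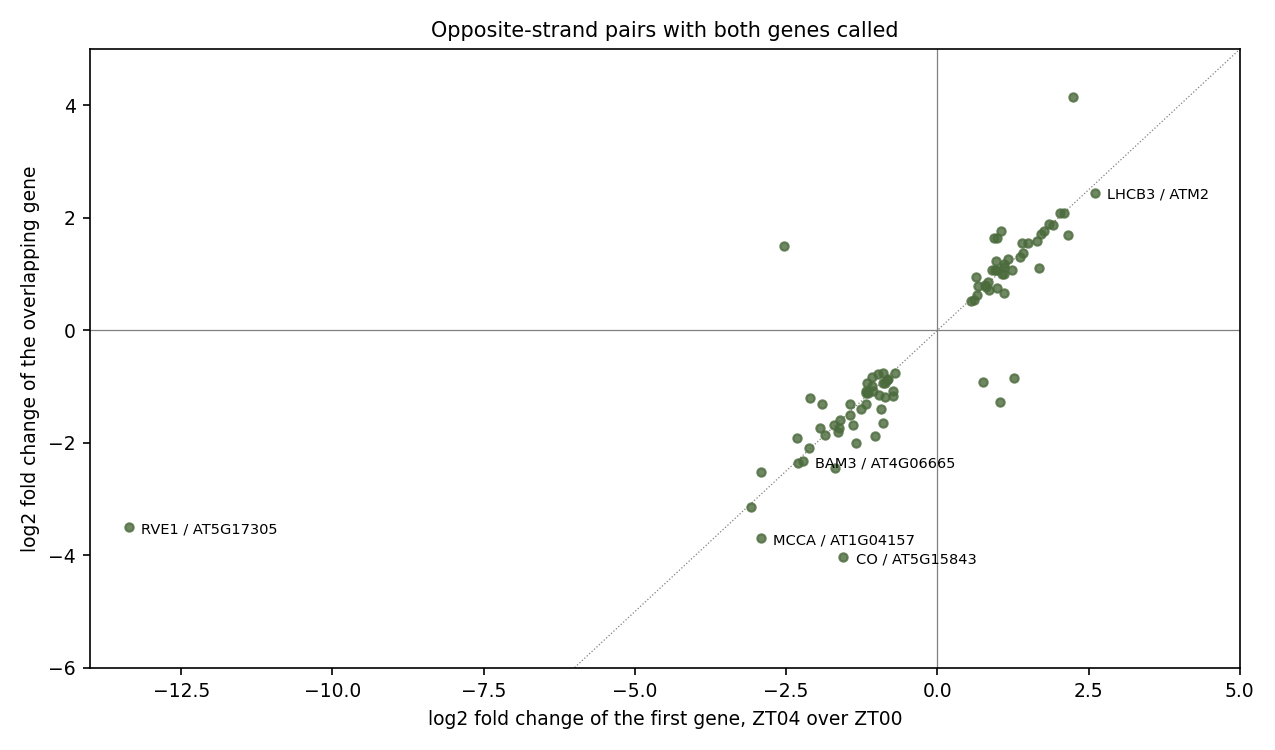
Points are opposite-strand pairs with both genes called, 90 in all. The log2 fold change (ZT04 over ZT00) of the first gene is on the x axis and that of its overlapping partner on the y axis. The pairs LYM1 with AT1G05687 (10.4 and 1.05) and AT4G18215 with AT4G18220 (0.92 and 12.7) lie beyond the axes and are not shown. Of the 90 pairs, 86 moved in the same direction, both of the pairs not shown included. The dotted line marks equal change.

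Over the rest of the EQ day, the called genes were also described at the times that the test did not use. For this description CPM was scaled over all 54 libraries, and the ZT00 and ZT04 libraries are the ones that made the calls. Of the 306 genes higher at ZT04, 161 had their highest mean at ZT04, 74 at ZT08 and 71 at ZT12, and none at ZT16 or ZT20. Of the 415 lower at ZT04, 253 peaked at ZT00, 93 at ZT16, 62 at ZT20, 4 at ZT08 and 3 at ZT12. Of all 7798 tested genes, 1588 peaked at ZT00, 1473 at ZT04, 1160 at ZT08, 1307 at ZT12, 1122 at ZT16 and 1148 at ZT20. The calls themselves exclude a ZT00 peak for the genes higher at ZT04 and a ZT04 peak for the genes lower at it. In the ZT20 libraries, 302 of the 306 had a mean below that of ZT04, against 48.4% of all tested genes. At the same time 415 of the 415 lay above their ZT04 mean, against 51.6%. In the ZT08 libraries 285 of the 306 were above ZT00 (46.8% of all tested genes) and 401 of the 415 were below it (53.1%). The ZT04 and ZT00 means in these comparisons are those that made the calls. The counts are therefore partly fixed by the selection and give no separate support.

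Single genes showed where dawn lies in their day. LHCB3 had means of 584, 3503 and 2774 CPM at ZT00, ZT04 and ZT08 and of 199 CPM at ZT12 and 26.3 CPM at ZT16. LHCB1.5 had 7775 ± 12574 CPM at ZT08 (SD, n = 3), an SD above the mean, against 415 ± 50.8 CPM at ZT04, while AT2G08665 opposite it had 224540.0 ± 26236 CPM at ZT08. LHCB1.2, LHCA1 and LHCA4 were highest at ZT08, and LHCB1.1, LHCB2.1, LHCB2.2, LHCB2.3 and LHCB6 at ZT04. PHS1 had 61.2 ± 7.81 CPM at ZT04 and 158 ± 22.6 CPM at ZT08 (SD, n = 3 each). LHY and RVE1 were near 0 from ZT08 to ZT16 and back at 47.7 and 309 CPM at ZT20. BAM3 had 1087 CPM at ZT20, beside 1312 CPM at ZT00. MCCA had its highest mean at ZT16, 837 ± 149.9 CPM (SD, n = 3), 4 h into the night. ELF3, at 0 at ZT04, had 125 CPM at ZT08 and 223 CPM at ZT16.

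**Figure D4:**
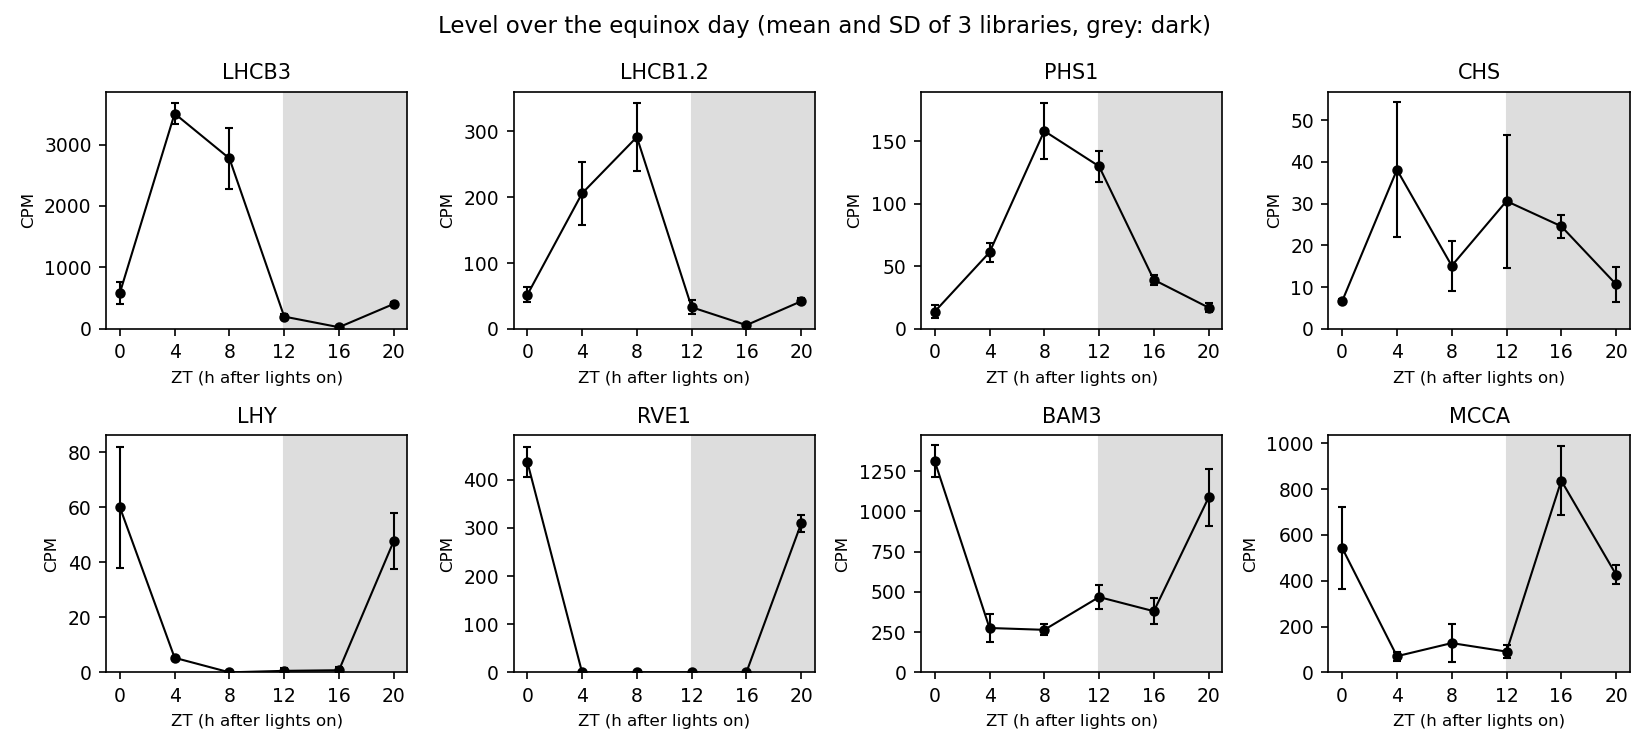
Mean CPM and SD of 3 EQ libraries at each time for 8 called genes, with ZT in hours on the x axis, CPM from 0 on each y axis and the dark hours in grey. LHCB3 is at 199 CPM at ZT12, LHY and RVE1 are near 0 between ZT08 and ZT16, and MCCA is highest at ZT16.

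The dawn change was tested in the same way in SD, where 16.6% of 8306 genes were called (7.5% higher and 9.08% lower), and in LD, where 1.79% of 8390 were (0.894% in each direction). Of the 306 genes higher in EQ, 190 were called higher in SD (62.1% of the EQ genes and 30.5% of the 623 SD genes) and 45 in LD (14.7% of the EQ genes and 60% of the 75 LD genes). Of the 415 lower in EQ, 289 were called lower in SD (69.6% and 38.3%) and 51 in LD (12.3% and 68%). Only LHCB1.1 was called in opposite directions in EQ and SD (log2 dawn change 0.81 in EQ and -0.52 in SD, FDR 0.0456 in SD), and no gene in EQ and LD. The difference between dawn changes was then tested itself, as an interaction in a fit of 18 libraries. EQ differed from SD in 3 of 11161 genes (0.0269%), LHCB1.5, PEN2 and LRL2, all with the larger value in EQ, and from LD in 0 of 11161 (0%). At an unadjusted p under 0.05 there were 715 genes for SD and 778 for LD. DESeq2 gave 123 and 108 calls, and limma-voom gave 2 and 0.

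In the antenna list, LHCB1.5 alone passed the test of a difference between photoperiods. In SD, 8 of 19 tested antenna genes rose and 1 fell (median log2 fold change 0.43), where 7.5% of all tested genes rose and 9.08% fell. In LD 6 rose and none fell (1.49), where 0.894% of all tested genes rose. In EQ 11 rose and none fell (0.88), where 3.92% of all tested genes rose. For LHCB1.5 the dawn change in EQ exceeded that in SD by 1.23 on the log2 scale (SE 0.18, FDR 0.0315). Scaled over all 54 libraries, its CPM were 398, 473 and 375 at ZT04 in EQ and 476, 432 and 404 at ZT04 in SD. At ZT00 they were 98.3, 102 and 97.3 in EQ and 222, 248 and 257 in SD, so the times before dawn differed and the times after it overlapped. In LD, LHCB1.5 had 399, 437 and 504 CPM at ZT04 and 95.7, 82.0 and 91.1 CPM at ZT00. This call was lost without ZT00 replicate A, B or C of EQ (FDR 0.0819, 0.142 and 0.0665) and without the filter on low counts. Of the 19 tested antenna genes, 17 had a larger dawn change in EQ than in SD. The median difference of the 19 was 0.88 on the log2 scale, against 0.04 over all 11161 genes. An unadjusted p under 0.05 was found for 12 of the 19, against 715 of all 11161 genes, but the 18 other than LHCB1.5 did not pass. LHCB1.1, for example, differed by 1.32 (SE 0.26, FDR 0.227). None of the 19 passed between EQ and LD. The 19 share libraries, and near-identical copies may share reads, so they are not independent. AT2G08665, opposite LHCB1.5, also had a larger fitted dawn change in EQ than in SD, by 0.85 on the log2 scale (SE 0.20), and did not pass (FDR 0.404).

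**Figure D5:**
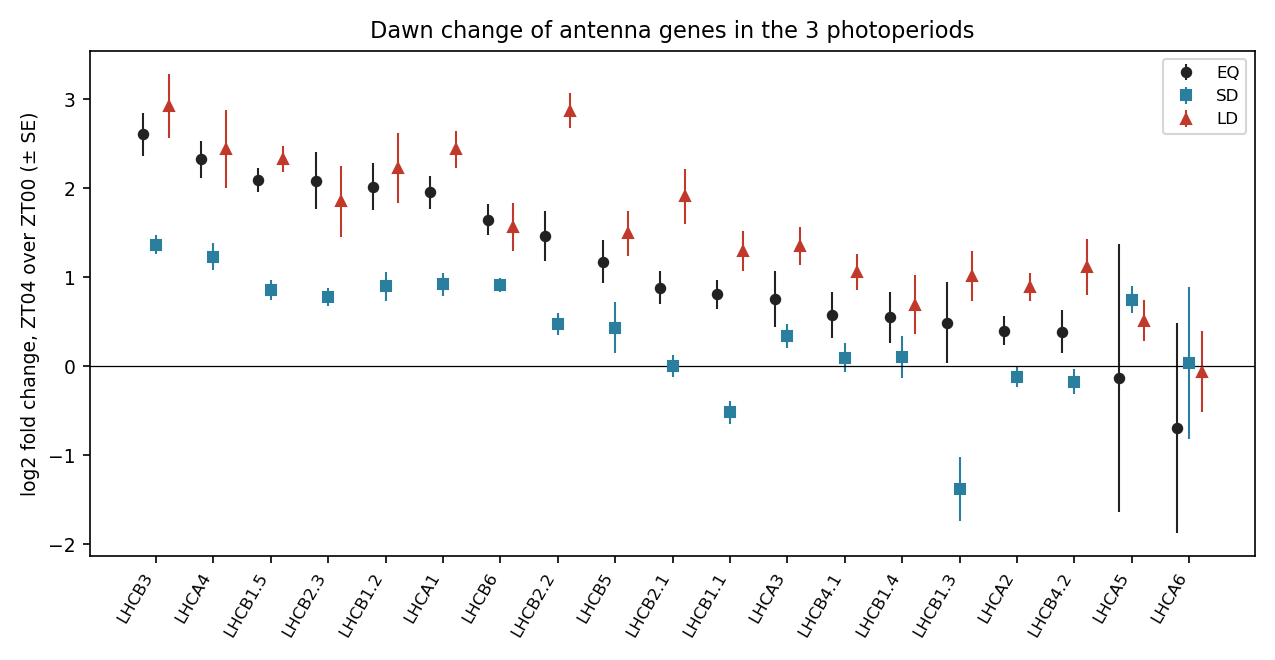
Log2 fold change of ZT04 over ZT00 with its SE for the 19 tested antenna genes in EQ (black circles), SD (blue squares) and LD (red triangles), each from a fit of its own 6 libraries, ordered by the EQ value. EQ lies above SD in 17 of the 19 genes, while the difference itself passed the test in LHCB1.5 alone.

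For falling clock and carbon genes no difference between photoperiods passed. The log2 dawn change of LHY was -3.47 in EQ, -3.43 in SD (FDR 0.00455) and -2.22 in LD (FDR 0.0472), and the difference of EQ from SD was -0.04 (SE 0.54). MCCA gave -2.92 in EQ, -2.78 in SD and -2.24 in LD. BAM3 gave -2.23, -1.55 and -1.97, and NIA2 -2.64, -1.68 and -1.67. CCA1, which did not pass in EQ, was called in SD (log2 dawn change -2.39, FDR 0.00977), and the difference between EQ and SD did not pass (FDR 0.617). ELF3 and TPS9, at 0 at ZT04 in EQ, were not called in SD (log2 dawn change -1.71 and -1.92, FDR 0.483 and 0.518). In LD they were not called either (-3.35 and -2.31, FDR 0.472 and 0.369). RVE1, also at 0 at ZT04 in EQ, was called in SD (FDR 0.00058) but not in LD (log2 dawn change -3.49, FDR 0.346).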

How the data were processed

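Per the labels and the paper's methods, the authors trimmed reads with Trimmomatic (version 0.39), mapped them with HISAT2 (version 2.1.0) to TAIR10 with spike-in sequences added and assembled gene counts with StringTie (version 2.1.2). The deposited values are raw counts per gene, with no normalization. The kit as described does not mark strand, although a strand setting was given to the mapper.

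From these counts, edgeR (version 4.0.16, R version 4.3.3) was run on the 6 EQ libraries of ZT04 and ZT00 with TMM factors, a minimum count of 10 (filterByExpr) and Benjamini-Hochberg adjustment over all genes tested. Differences between photoperiods were interaction contrasts over the 18 libraries of ZT04 and ZT00. A gene at 0 throughout a time got a lower bound of its fold against 3 counts over the 3 libraries of that time. Names, biotypes, strands and promoters came from RefSeq (TAIR10.1). The alternatives were scaling by library totals, DESeq2 (version 1.42.0), limma-voom (limma version 3.58.1), no filter, a minimum count of 30, a replicate block, genes without opposite-strand overlap, fits of more libraries and omission of each library.

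Named genes were list members that were called or that the study names, the 12 largest changes in each direction among called genes whose 6 libraries averaged 20 CPM or more and whose times did not overlap, the 5 called genes with the most counts in each direction, and up to 3 called interactions per direction with at least 20 CPM. LHCB1.4, LHCA5, LHCA6 and other list members without a call, PEN2, LRL2 and overlapping partners were added after their values were seen. The lists and this choice of libraries were made with earlier results of these data known. Tested on simulated counts for 7798 genes, the EQ comparison recovered 38 of 100 genes changed 4-fold and 62 of 100 changed 16-fold, with 6 unchanged genes among 106 calls. For the interaction with SD (11161 genes) 22 of 100 and 42 of 100 were recovered, with 2 unchanged genes among 66 calls. Each replicate was a pool of seedlings from a single plate, and p-values measure the spread between these pools.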

Additional observations from a re-analysis of the deposited data

Results flagged for a closer look

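For 3 genes the dawn change in EQ differed from that in SD by the interaction test in edgeR, and all had an FDR of 0.0315. LHCB1.5, an antenna gene, had a log2 difference of 1.23 (SE 0.18). Its ZT04 values lay between 375 and 473 CPM in EQ and between 404 and 476 CPM in SD, and its ZT00 values between 97.3 and 102 CPM in EQ and between 222 and 257 CPM in SD. The lncRNA gene AT2G08665 overlaps LHCB1.5 over 1045 bases on the other strand, averaged 187018 CPM at ZT04 and 45715 CPM at ZT00 in EQ, and had an EQ minus SD difference of 0.85 (FDR 0.404). Which gene of the pair the reads counted for LHCB1.5 came from was not tested.

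PEN2, a myrosinase of glucosinolate metabolism, had a log2 difference of 6.92 (SE 0.83). Its counts were 26, 28 and 35 at ZT04 and 0 in all 3 libraries at ZT00 in EQ, and 55, 46 and 30 at ZT04 and 16, 32 and 24 at ZT00 in SD. In LD, PEN2 had 37, 30 and 14 counts at ZT04 and 0 in all 3 libraries at ZT00. Because of the zeros its fitted difference depends on the prior count.

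LRL2, a basic helix-loop-helix factor known from root hairs, had a log2 difference of 8.58 (SE 1.18). It had 15, 7 and 25 counts at ZT04 and 12, 6 and 13 at ZT00 in EQ, and 0 in all 3 libraries at ZT04 and 26, 54 and 19 counts at ZT00 in SD, so this fitted value depends on the prior count as well. The calls of PEN2 and LRL2 were lost in limma-voom (FDR 0.0688 and 0.0802), and all 3 were lost without a filter on low counts (FDR between 0.0945 and 0.134) and without any 1 of the 3 ZT00 libraries of EQ (FDR between 0.0665 and 0.145).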

How the results depend on the processing

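The fitted log2 fold change of all 721 genes called in EQ kept its sign under every alternative in which the gene was fitted. With a minimum count of 30, 662 of them were fitted, among genes without opposite-strand overlap 222, and elsewhere 721. In all 721 genes the values of the times compared did not overlap. Fits of the same libraries, or without any single library, could therefore hardly change a sign. The kept signs are largely fixed by the selection and give no separate support. Against 306 genes higher and 415 lower, library totals gave 215 and 637, DESeq2 600 and 721, no filter 142 and 232, genes without opposite-strand overlap 80 and 128 of 3369 tested, and a fit of all 54 libraries 472 and 687. The 18 EQ libraries gave 441 and 617, limma-voom 330 and 453, and a minimum count of 30 gave 370 and 495. Without single libraries there were between 51 and 232 genes higher and between 51 and 272 lower. Library totals, DESeq2 and limma-voom used the same libraries and the same 7798 genes as the main fit. The other fits named in this paragraph differed from it in the libraries or the genes that entered. The cause of the differences in calls was not tested.

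For the 3 genes with a difference between EQ and SD, DESeq2 gave 123, and 0 were called with no filter and 0 among genes without opposite-strand overlap, with a range from 0 to 13 without single libraries of EQ. For EQ against LD, where 0 were called, DESeq2 gave 108 and omission of single libraries between 0 and 6. Of 65 called named genes, 25 kept their call without any 1 library and 8 lost it whichever library was left out. The named genes include those chosen for the largest changes and the most counts. Over all called genes, 39 of 306 rises and 46 of 415 falls were still called without ZT00 replicate B. Without ZT00 replicate C, 169 and 243 were. At 2942862 to 3460323 counts a library, genes of low counts were often not tested.

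With the replicate letter as a block, 0 genes were higher and 0 were lower in EQ (1439 at an unadjusted p under 0.05, lowest FDR 0.103), and 0 differed between EQ and SD. Deviations of same-lettered ZT04 and ZT00 libraries from their group means correlated at 0.061, -0.002 and 0.054 across genes. Those of differently lettered libraries correlated at between -0.059 and 0.006. Deviations from means of 3 libraries cannot decide whether the letters pair the samples, and the main fit left the letters out.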
